A study of Homo sapiens with 9 samples.

Results

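The genes described here are 43 target genes and components of the hypoxia-inducible factor (HIF) pathway, a set of transcripts that cells raise when oxygen runs short. They were taken by gene symbol from transcript counts of 25680 symbols, with the RefSeq transcript of the highest total standing for each gene. Of these 43 genes, 40 passed the filter on low counts, among 14199 genes tested. HIF3A, EGLN3 and STC2 did not pass. The counts came from SKNO-1, an established human line of acute myeloid leukaemia. Its AML-ETO fusion protein (RUNX1-RUNX1T1) is shared by all groups. The 9 samples formed 3 groups of 3: cells with a control shRNA (shControl, named EV in the labels without an explanation), with an shRNA against ASXL2 labelled SH2 (shASXL2-2) and with another labelled SH3 (shASXL2-3). ASXL2 encodes a chromatin regulator of the Polycomb and Trithorax systems. In each group the samples carry the numbers 1, 13 and 25. The labels do not say what these numbers stand for and give no oxygen level, age of culture or treatment other than the shRNA, so whatever sets the samples numbered 1 apart (culture, harvest, library or sequencing run) cannot be told apart here. The methods describe 1 cell line grown with GM-CSF. The labels’ extraction text speaks of sorted cells from bone marrow, not of this line.

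HIF is a pair of proteins, an alpha subunit (HIF1A, EPAS1 or HIF3A) and the constant partner ARNT. With oxygen, hydroxylases of the EGLN family mark the alpha subunit, and VHL, part of a ubiquitin ligase, recognises the mark and sends the subunit to the proteasome. Without oxygen the alpha subunit persists, enters the nucleus and binds short response elements near genes for glucose uptake and glycolysis, mitochondrial removal, acid export, blood vessel growth and matrix. Since the control acts mainly on the protein, the transcript of HIF1A itself often says little about the activity of the pathway. The bone marrow is a tissue of low oxygen, where HIF is known for its part in blood stem cells. Several of the genes also answer to other signals, such as nutrient shortage, hormones or growth factors.

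Levels are given below as normalised read counts in CPM, the count as a share of the effective library size, in millionths, in the order shControl, shASXL2-2 and shASXL2-3. Differences are log2 values from edgeR's quasi-likelihood test, with p values adjusted by the Benjamini-Hochberg method over all genes tested and a threshold of 0.05. The standard error (SE) beside them was derived from the log2 value and the F statistic of that test. The libraries held 27714431 to 35406063 counts with 1 transcript per gene. A count of 3, chosen here as the limit, was 0.0847 to 0.108 CPM, and lower levels are printed as counted. These limits cover counting error only. ASXL2 itself was at 67.9 to 74.7 CPM in the shControl samples and 26.9 to 41.1 CPM in the 6 knockdown samples, without overlap (two-sided exact permutation test over 84 splits, p = 0.0119, and p = 0.0370 over the 27 splits with 1 sample of every number as control, each the smallest possible). The methods call the 3 samples of a group biological replicates, and the labels do not say what made them separate. The p values measure the spread that each fit leaves between these samples. For number 1 against the others, that is the spread left after the group and number terms. Same-numbered samples correlated across groups (mean r 0.598). If a number stands for 1 culture or run, its 3 samples are not independent replicates of that number, and these p values are too small.

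The HIF target genes were higher in the samples numbered 1 than in those numbered 13 and 25, in every group. Of the 40 genes tested, 33 (82.5%) rose in the samples numbered 1 and 0 fell, where 24.1% of all genes tested were higher and 22.2% lower. The median difference was 0.77 on the log2 scale over the 40 genes and 0.01 over all 14199 genes, and 38 of the 40 values were above 0. At an unadjusted p under 0.05, 34 of the 40 genes differed and 0 were lower, where 54.1% of all genes differed. DESeq2 called 34 higher and 0 lower, against 19.9% and 20.8% of all genes. All 3 samples numbered 1 lay above all 6 others for 32 of the 40 genes, against 14.4% of all genes, and below them for 0, against 12.1%. The genes were listed with earlier results of these data known, so these counts describe them and are not an independent test of the pathway. CA9 and ANGPTL4, both among the 33 and the 32, did not pass the low-count filter when the samples numbered 1 were left out.

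**Figure D1:**
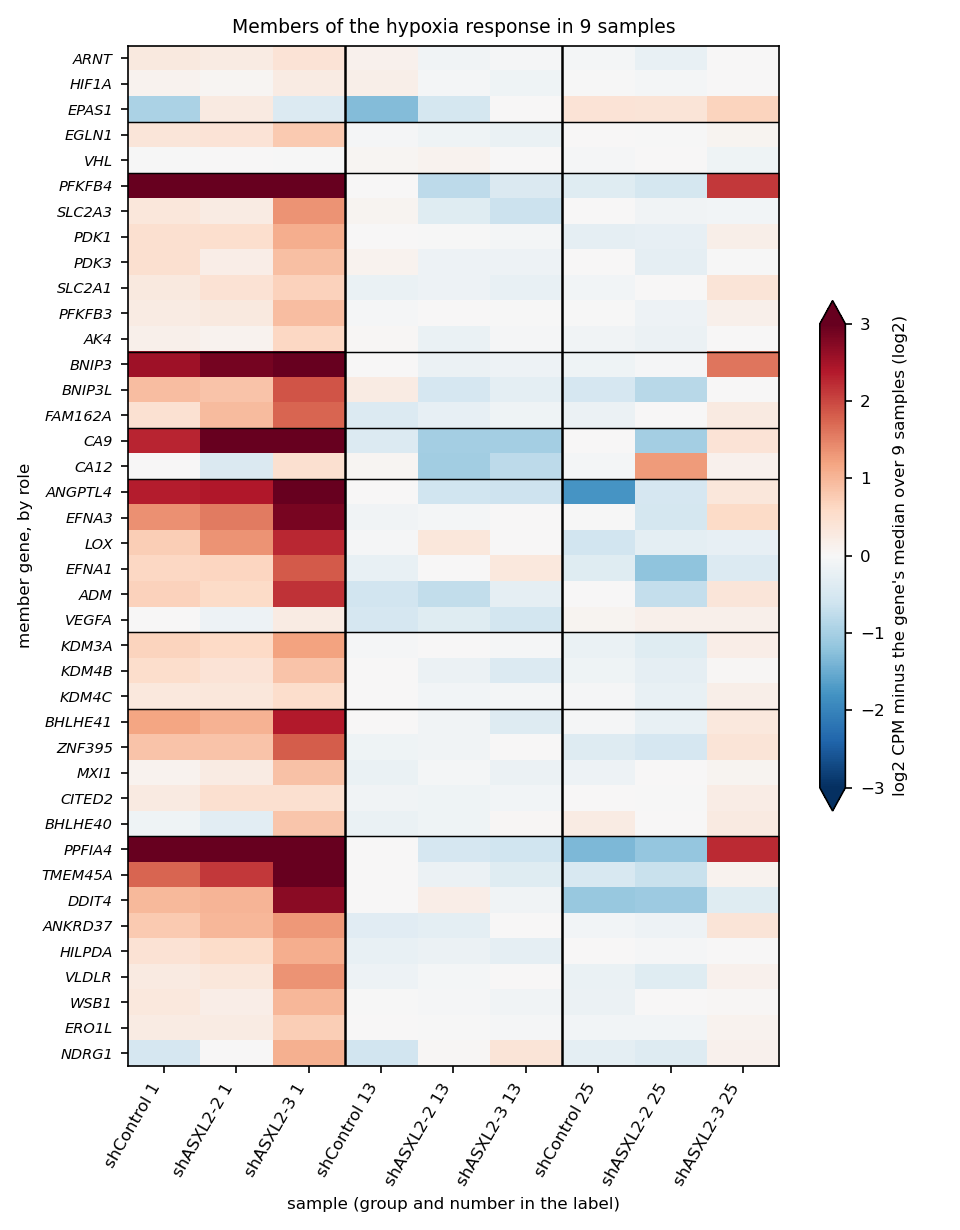
Each row is 1 of the 40 tested genes, grouped by role between the black lines, and each column 1 of the 9 samples. Colour gives log2 CPM minus the median of that gene over the 9 samples, and the 3 columns of the samples numbered 1 hold most of the red, deepest in shASXL2-3, where the median over the genes was 1.09.

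The 5 largest fitted differences of the list were those of CA9, PPFIA4, PFKFB4, ANGPTL4 and BNIP3. That of CA9 is set against 0 to 3 counts in the 6 other samples and depends on the prior count of the fit, so its place in this order is uncertain. Sequence from the 250 bases before the start of each is shown, since HIF binds a short core that these letters can hold. The sequences are from RefSeq (table of build GRCh38.p14), were found at 1 place each in GRCh37, and are printed 5′ to 3′ on the strand of the gene, leaving out annotated exons except in the 30 bases for CA9, which lie in an exon of ARHGEF39 on the other strand. Capitals mark the core ACGTG or GCGTG on either strand, so CACGT and CACGC are its reverse forms and CACGTG counts on both strands with overlapping letters.
CA9: tcgtttccaatgCACGTacagcccgtacac
PPFIA4: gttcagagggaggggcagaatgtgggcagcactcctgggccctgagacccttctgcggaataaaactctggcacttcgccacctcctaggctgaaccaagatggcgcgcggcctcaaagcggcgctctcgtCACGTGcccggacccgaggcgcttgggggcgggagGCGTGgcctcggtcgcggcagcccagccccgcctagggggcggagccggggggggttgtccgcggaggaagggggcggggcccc
PFKFB4: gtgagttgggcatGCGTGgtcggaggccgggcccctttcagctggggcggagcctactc
ANGPTL4: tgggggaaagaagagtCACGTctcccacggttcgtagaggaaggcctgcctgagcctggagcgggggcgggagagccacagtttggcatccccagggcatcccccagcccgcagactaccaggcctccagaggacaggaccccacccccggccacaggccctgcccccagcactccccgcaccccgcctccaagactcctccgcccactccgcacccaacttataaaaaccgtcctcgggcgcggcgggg
BNIP3: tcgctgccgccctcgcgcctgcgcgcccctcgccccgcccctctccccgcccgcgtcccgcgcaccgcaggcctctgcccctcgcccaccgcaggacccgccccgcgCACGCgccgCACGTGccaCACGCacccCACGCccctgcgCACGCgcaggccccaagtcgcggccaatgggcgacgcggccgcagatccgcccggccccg
The CA9 stretch is chr9:35673895-35673924 on the plus strand (GRCh37) and ends at the base before the start. PPFIA4 has chr1:202995369-202995618 on the plus strand, outside any annotated gene. The PFKFB4 bases are chr3:48594357-48594415 on the minus strand and the ANGPTL4 bases chr19:8428789-8429038 on the plus strand, both inside the annotated extent of their gene, in no exon. The BNIP3 stretch is chr10:133795472-133795677 on the minus strand, just before the annotated gene. Each of the 5 windows of 250 bases held at least 1 core, with 6 matches in that of BNIP3 and 3 in that of PPFIA4. Of the 35 genes of the list found in the table, 29 (82.9%) had a match in the 250 bases, against 57.0% of the 10025 tested genes in the table and 43.1% of all 27305 genes in it. The share was 23 of 28 among the genes that rose in the samples numbered 1 and 6 of 7 among the others. These others include EGLN3, HIF3A and STC2, which were not tested. A match is a description of the letters and not a binding site. The other 8 genes of the list were VHL, BNIP3L, VEGFA, NDRG1, ERO1L, SLC2A3, HILPDA and ZNF395.

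Of the subunits and oxygen sensors, 2 of the 5 tested rose. For this and the other roles below, 24.1% of all genes tested were higher and 22.2% lower. HIF1A, the oxygen-labile subunit best known for glycolytic targets, was at 138, 135 and 154 CPM in the samples numbered 1, 147, 124 and 118 CPM in those numbered 13 and 129, 125 and 129 CPM in those numbered 25. These ranges overlap, and the difference of 0.15 (SE 0.07, adjusted p = 0.122) did not pass the test. ARNT, the constant partner, was at 53.5, 51.6 and 57.5 CPM in the samples numbered 1 against 37.1 to 47.4 CPM (median 42.2 CPM) in the 6 others, without overlap, and rose by 0.37 (SE 0.06, adjusted p = 0.00138). EPAS1, the second alpha subunit, stayed under 1 CPM in all samples, with 4 to 20 counts, and its difference of -0.33 did not pass (adjusted p = 0.465). HIF3A had 0 to 2 counts in a sample, under the limit of 3 counts in all 9. VHL was nearly level, at 115, 116 and 115 CPM in the samples numbered 1 and 105 to 124 CPM (median 116 CPM) in the others, with a difference of -0.00 (SE 0.05, adjusted p = 0.965). EGLN1, the main hydroxylase of the sensor family and itself a HIF target, was at 127, 131 and 170.2 CPM in the samples numbered 1 and 85.4 to 105 CPM (median 97.0 CPM) in the 6 others. It rose by 0.57 (SE 0.08, adjusted p = 0.000845), with all 3 samples above the 6 others. EGLN3, its inducible relative, had 0 counts in all 9 samples, which allows up to 0.108 CPM in the shallowest library.

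The genes of mitochondrial turnover and cell death all rose. BNIP3 (NM_004052, chr10:133781188-133795471, minus strand), a mitochondrial outer membrane protein that drives removal of mitochondria by autophagy, was at 209.7, 264 and 582 CPM in the samples numbered 1. It was at 36.1, 31.9 and 32.2 CPM in those numbered 13 and 32.9, 35.0 and 110.3 CPM in those numbered 25, so the shASXL2-3 sample was the highest both at number 1 and at number 25. The difference was 2.91 (SE 0.23, adjusted p = 7.02e-05), and within a group the sample numbered 1 held 6.08, 7.90 and 8.17 times the mean of the other samples. An exact permutation test on this gene alone gave p = 0.0119 over 84 splits and 0.0370 over the 27 splits with 1 sample from every group, each the smallest possible, two-sided. BNIP3, like PFKFB4 and PPFIA4 below, has among the largest differences in these same samples, so these p values only describe it. Samples without overlap can reach such values, and for 14.4% of all genes those numbered 1 lay above all others, for 12.1% below. BNIP3L, the close relative of BNIP3, was at 101, 95.8 and 194 CPM against 29.5 to 62.3 CPM (median 40.2 CPM), and rose by 1.54 (SE 0.17, adjusted p = 0.000243). FAM162A, a mitochondrial protein linked to cell death in hypoxia, was at 78.2, 111 and 192 CPM against 43.1 to 68.4 CPM (median 51.6 CPM). Its difference was 1.19 (SE 0.13, adjusted p = 0.000243). For all 3 genes the samples numbered 1 lay above all others.

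All 7 genes of glucose and energy metabolism rose, by 0.38 to 4.04. PFKFB4 (NM_004567, chr3:48555117-48599448, minus strand) makes and breaks down the sugar phosphate that switches on phosphofructokinase, a gate of glycolysis. It was at 57.3, 66.5 and 194 CPM in the samples numbered 1, at 5.14, 2.98 and 3.77 CPM in those numbered 13 and at 4.001, 3.57 and 22.6 CPM in those numbered 25. Again shASXL2-3 was highest at 1 and at 25 but not at 13. The difference was 4.04 (SE 0.29, adjusted p = 5.08e-05), with exact permutation p values equal to those of BNIP3. Its relative PFKFB3, with the strongest kinase activity of the family, was at 85.4, 88.2 and 138 CPM against 65.0 to 80.3 CPM (median 71.3 CPM) in the 6 others. The difference was 0.51 (SE 0.10, adjusted p = 0.00312). The pyruvate dehydrogenase kinases, which keep pyruvate out of the mitochondrial cycle, followed. PDK1 was at 121, 123 and 184 CPM against 72.3 to 97.2 CPM (median 84.9 CPM). It rose by 0.76 (SE 0.10, adjusted p = 0.000452). PDK3 was at 36.6, 30.002 and 48.6 CPM against 21.6 to 28.1 CPM (median 24.6 CPM). It was higher by 0.62 (SE 0.10, adjusted p = 0.00137). Neither kinase overlapped between the sets of samples.

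Of the glucose transporters, SLC2A3 (GLUT3) was at 87.7, 82.1 and 175 CPM in the samples numbered 1 against 44.6 to 72.7 CPM (median 64.7 CPM) in the others, a difference of 0.87 (SE 0.21, adjusted p = 0.00743). Its close paralog SLC2A14 may share reads with it, so its count is uncertain. SLC2A1 (GLUT1), the widespread transporter, was at 93.2, 103 and 123 CPM in the samples numbered 1, at 66.7, 68.6 and 64.8 CPM in those numbered 13 and at 71.7, 76.1 and 99.0 CPM in those numbered 25. It passed the test (0.52, SE 0.08, adjusted p = 0.00108) although the shASXL2-3 sample numbered 25 lay above the shControl sample numbered 1, the only overlap among the genes called. AK4, a mitochondrial adenylate kinase, was at 149.7, 146 and 207 CPM against 118 to 139 CPM (median 128 CPM) in the others. It rose by 0.38 (SE 0.08, adjusted p = 0.00404), and its samples did not overlap.

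**Figure D2:**
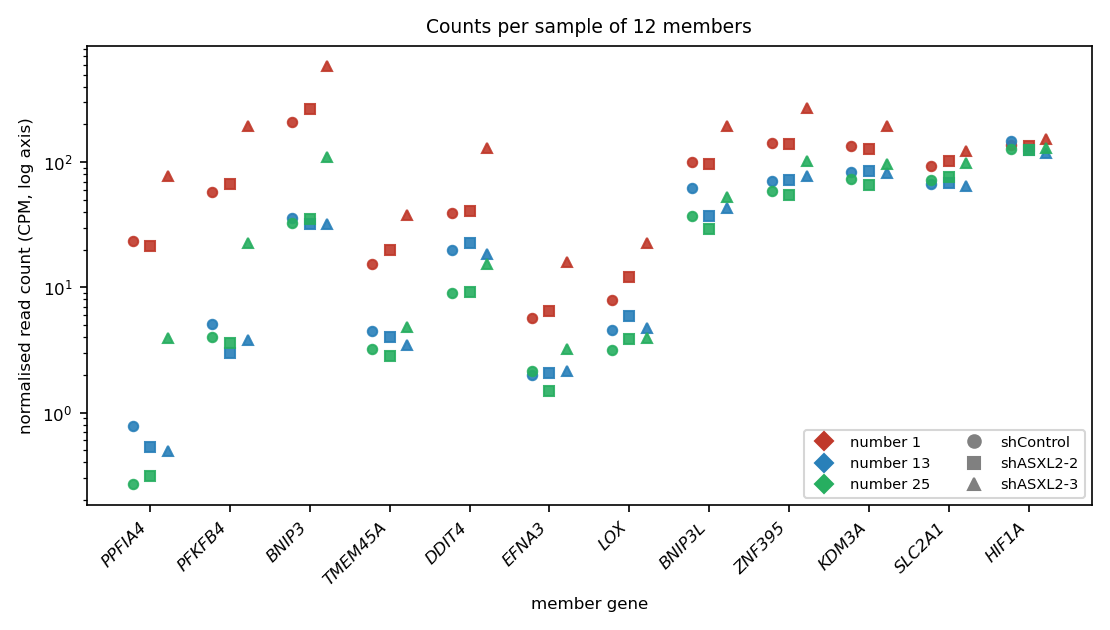
Normalised read counts (CPM, log axis) of 12 genes of the list, 1 point per sample, with colour for the number in the label and shape for the group. For PPFIA4, PFKFB4 and BNIP3 the red points (number 1) stand far above the others and the green triangle (shASXL2-3, number 25) lies between, while the points of HIF1A overlap.

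Of the carbonic anhydrases, which turn carbon dioxide to bicarbonate and protons at the cell surface, CA9 (NM_001216, chr9:35673925-35681156, plus strand) is among the most HIF-dependent transcripts known. It had 21, 34 and 385 counts in the samples numbered 1, 1, 0 and 0 counts in those numbered 13, and 2, 0 and 3 counts in those numbered 25. The 6 latter counts were at or under the limit of 3, so no fold is given. Its difference passed the test (adjusted p = 4.51e-05), but it is the 1 gene of the list that passed the low-count filter in samples numbered 1 alone. Its first exons lie opposite ARHGEF39, and the unstranded reads do not tell these genes apart. CA12 had 7 to 39 counts in a sample, the highest in shASXL2-2 numbered 25, and its difference of 0.06 (SE 0.42, adjusted p = 0.918) did not pass.

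The secreted factors, surface ligands and matrix genes were mostly low in these cells, and 5 of the 6 tested rose. ANGPTL4 (NM_139314, chr19:8428173-8439254, plus strand), an inhibitor of lipoprotein lipase, had 60, 51 and 175 counts in the samples numbered 1 and 1 to 10 counts in the 6 others. That made 1.65, 1.71 and 5.96 CPM against 0.0333 to 0.364 CPM (median 0.165 CPM), with a difference of 3.91 (SE 0.34, adjusted p = 0.000103). Only 4 samples were over the low-count cutoff, those numbered 1 and shASXL2-3 numbered 25. EFNA3, a ligand of Eph receptors, was at 5.72, 6.53 and 16.0 CPM against 1.49 to 3.24 CPM (median 2.10 CPM). It rose by 2.01 (SE 0.20, adjusted p = 0.000174). EFNA1, a ligand of the same family, was at 0.660, 0.670 and 1.63 CPM against 0.139 to 0.525 CPM (median 0.320 CPM). That is a difference of 1.55 (SE 0.28, adjusted p = 0.00199). LOX, the enzyme that cross-links collagen, was at 7.92, 12.1 and 22.6 CPM against 3.13 to 5.92 CPM (median 4.26 CPM). It rose by 1.64 (SE 0.20, adjusted p = 0.000394). ADM, the vasodilator peptide adrenomedullin, was at 4.26, 3.88 and 11.95 CPM against 1.54 to 3.35 CPM (median 1.93 CPM). It rose by 1.54 (SE 0.20, adjusted p = 0.000493). In these 5 genes every sample numbered 1 exceeded every other sample. VEGFA, the growth factor of blood vessels and a textbook HIF target, followed another order, at 219, 199 and 260.4 CPM in the samples numbered 1, 155, 171 and 150.4 CPM in those numbered 13 and 231, 244 and 244 CPM in those numbered 25. Its samples numbered 1 and 25 overlapped, and the difference of number 1 from the others was 0.21 (SE 0.08, adjusted p = 0.0535), which did not pass. STC2, a secreted glycoprotein, had 0 or 1 count in a sample.

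The 3 histone demethylases, oxygen-using enzymes that are HIF targets themselves, rose without overlap. KDM3A, which acts on H3K9, was at 135, 128 and 193 CPM in the samples numbered 1 against 65.9 to 96.6 CPM (median 82.2 CPM) in the others. It rose by 0.89 (SE 0.09, adjusted p = 0.000215). KDM4B was at 113, 103 and 139.7 CPM against 58.4 to 79.2 CPM (median 70.1 CPM) in the others. It rose by 0.75 (SE 0.10, adjusted p = 0.000614). KDM4C, its relative, was at 29.2, 29.7 and 34.0 CPM against 20.1 to 26.5 CPM (median 22.5 CPM). The difference was 0.44 (SE 0.08, adjusted p = 0.00163). In each of the 3 genes shASXL2-3 numbered 1 was the highest of the 9 samples.

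Of the transcription factors and cofactors, 4 of 5 rose. BHLHE41, a repressor of the clock family, was at 7.48, 6.80 and 17.4 CPM against 2.47 to 4.08 CPM (median 3.10 CPM). It rose by 1.67 (SE 0.22, adjusted p = 0.000523). Its relative BHLHE40 was at 61.0, 54.1 and 119.8 CPM in the samples numbered 1, 58.8, 60.9 and 68.6 CPM in those numbered 13 and 79.6, 67.1 and 81.3 CPM in those numbered 25. Its shASXL2-3 sample numbered 1 was the highest and the ranges overlapped, and the difference of 0.11 (SE 0.14, adjusted p = 0.542) did not pass. Without that sample the BHLHE40 difference was -0.21 (adjusted p = 0.0324) and so pointed the other way. ZNF395, a zinc finger factor, was at 141, 139.9 and 272 CPM against 54.8 to 101 CPM (median 71.0 CPM). It was higher by 1.30 (SE 0.12, adjusted p = 0.000132). MXI1, an antagonist of MYC, was at 65.2, 71.4 and 111 CPM against 52.9 to 63.7 CPM (median 56.1 CPM). It rose by 0.50 (SE 0.11, adjusted p = 0.00449). CITED2, which competes with HIF for its coactivators, was at 313, 361 and 362 CPM against 236 to 303 CPM (median 252 CPM). That is a difference of 0.43 (SE 0.06, adjusted p = 0.000886). ZNF395, MXI1, CITED2 and BHLHE41 had no overlap between the sets of samples.

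The other targets held the gene of the largest difference among those with counts in most samples. PPFIA4 (NM_015053, chr1:202995619-203047868, plus strand), a scaffold protein of the liprin family, was at 23.5, 21.4 and 77.9 CPM in the samples numbered 1, at 0.782, 0.533 and 0.494 CPM in those numbered 13 and at 0.267, 0.312 and 3.93 CPM in those numbered 25. The difference was 5.47 (SE 0.32, adjusted p = 1.59e-05), and the exact permutation p values were those of BNIP3. TMEM45A, a membrane protein, was at 15.3, 19.9 and 37.9 CPM against 2.81 to 4.84 CPM (median 3.73 CPM). It rose by 2.61 (SE 0.19, adjusted p = 5.58e-05). DDIT4, an inhibitor of mTORC1 that several stresses raise, was at 39.2, 40.4 and 130.0 CPM against 9.07 to 22.7 CPM (median 17.0 CPM). It rose by 2.03 (SE 0.24, adjusted p = 0.000368). In PPFIA4, TMEM45A and DDIT4 the shASXL2-3 sample numbered 1 was again the highest of all 9. ANKRD37 was at 3.41, 3.92 and 4.87 CPM against 1.53 to 2.58 CPM (median 1.78 CPM). It rose by 1.13 (SE 0.13, adjusted p = 0.000335). HILPDA, a protein of lipid droplets, was at 29.0, 31.5 and 45.7 CPM against 17.8 to 21.7 CPM (median 19.9 CPM). The difference was 0.82 (SE 0.11, adjusted p = 0.000531).

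The remaining targets moved by less than 1 on the log2 scale. VLDLR, a lipoprotein receptor, was at 21.9, 22.8 and 46.2 CPM against 14.0 to 19.8 CPM (median 16.8 CPM). It rose by 0.78 (SE 0.14, adjusted p = 0.00178). WSB1, a subunit of a ubiquitin ligase, was at 56.8, 52.4 and 90.6 CPM against 40.4 to 46.6 CPM (median 44.6 CPM). It was higher by 0.57 (SE 0.12, adjusted p = 0.00409). ERO1L, the oxidase that forms disulphide bonds in the endoplasmic reticulum, was at 77.5, 77.7 and 110.0 CPM against 62.3 to 71.1 CPM (median 64.2 CPM). It rose by 0.43 (SE 0.08, adjusted p = 0.00274). In these 3 genes the samples numbered 1 lay above all others. NDRG1, a stress-responsive protein, was at 41.1, 58.6 and 122 CPM in the samples numbered 1, 39.5, 59.7 and 76.5 CPM in those numbered 13 and 47.8, 45.2 and 64.1 CPM in those numbered 25. The ranges of the numbers overlapped, and its difference of 0.31 (SE 0.15, adjusted p = 0.104) did not pass.

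**Figure D3:**
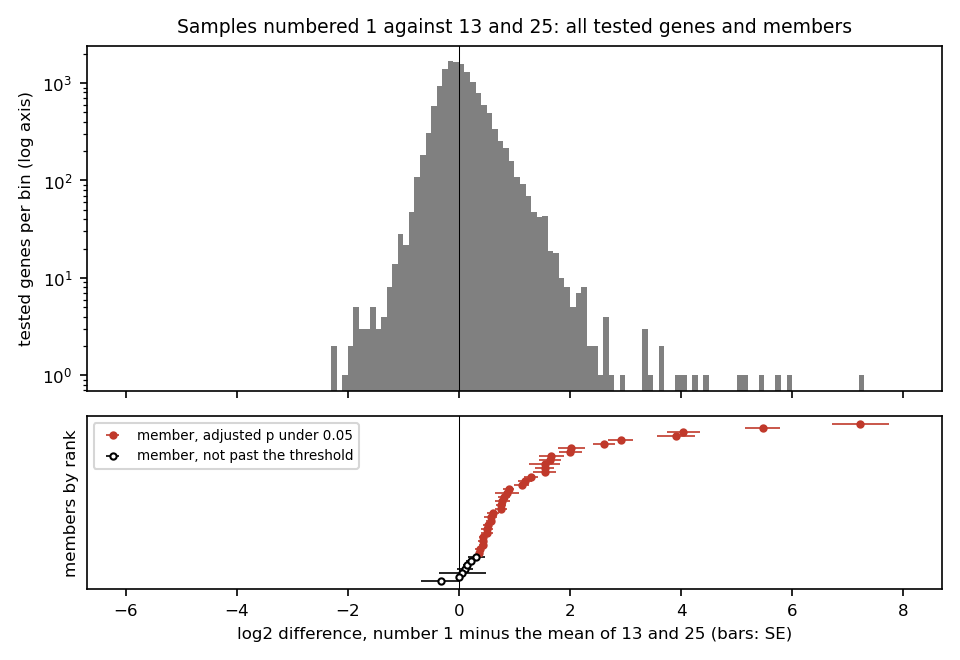
The upper panel counts all 14199 tested genes by their log2 difference between the samples numbered 1 and the mean of 13 and 25 (log axis), and the lower panel shows the 40 genes of the list by rank, with SE. Red points passed the threshold (33) and open points did not (7), and the highest point, CA9, rests on few counts and depends on the prior count of the fit.

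Levels between genes can be set side by side only per length, here as CPM per kilobase of the canonical GENCODE transcript (RPKM), which 38 of the 40 tested genes had. The counted RefSeq transcript can differ from it in length, so the order of genes is approximate. In the samples numbered 13 and 25 the highest of the 38 was CITED2 at 108 ± 10.1 RPKM (SD, n = 6), followed by VEGFA at 55.1 ± 12.5 RPKM, HIF1A at 32.6 ± 2.48 RPKM and BNIP3 at 30.1 ± 20.3 RPKM. The spread of BNIP3 reached those of VEGFA and HIF1A, and CITED2 stood clear. Without shASXL2-3 numbered 25 BNIP3 was at 21.8 ± 1.19 RPKM (SD, n = 5), below the spread of VEGFA and HIF1A. In the samples numbered 1 BNIP3 came first at 228 ± 130.3 RPKM (SD, n = 3), ahead of CITED2 at 145 ± 11.8 RPKM, but their spreads overlapped. PFKFB4 stood at 30.2 ± 21.8 RPKM and PPFIA4 at 6.29 ± 4.93 RPKM there, from 2.003 ± 2.19 and 0.162 ± 0.218 RPKM in the other 6. Both of the latter means rest on the shASXL2-3 sample numbered 25, without which they were 1.11 ± 0.227 and 0.0734 ± 0.0315 RPKM (SD, n = 5). CA9 reached only 3.20 ± 4.58 RPKM.

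The size of the difference was then compared between the groups. Over the 40 genes its median was 0.50 in shControl, 0.59 in shASXL2-2 and 1.07 in shASXL2-3 (log2), against -0.00 to 0.01 over all genes. The test of the difference between groups called 13 of the 40 genes (32.5%), against 4.92% of all genes. Each group has 1 sample numbered 1, which shows no spread of its own, and the test has 2 residual degrees of freedom, which come from the samples numbered 13 and 25. These calls therefore compare single samples, assumed to vary like the others. In all 13 the difference was largest in shASXL2-3. How often this held among all genes called by the test was not counted. The transporter SLC2A3 had log2 differences of 0.30, 0.48 and 1.70 in the order of the groups (adjusted p = 0.00186). BHLHE40 had -0.17, -0.24 and 0.68 (adjusted p = 0.00303). FAM162A had 0.74, 1.08 and 1.68 (adjusted p = 0.00303). In SLC2A3 and BHLHE40 the values of shControl and shASXL2-2 were close to each other and far from that of shASXL2-3. The mTORC1 inhibitor DDIT4 had 1.52, 1.44 and 2.95 (adjusted p = 0.00732). The matrix enzyme LOX had 1.06, 1.33 and 2.40 (adjusted p = 0.00996). The ubiquitin ligase subunit WSB1 had 0.42, 0.22 and 1.03 (adjusted p = 0.0108). The others called were MXI1, VLDLR, HILPDA, BHLHE41, PFKFB3, NDRG1 and PDK3, with adjusted p values of 0.0138 to 0.0490. Some genes with larger differences in the samples numbered 1 did not pass this test. PPFIA4 had 5.57, 5.70 and 5.35 (adjusted p = 0.937). PFKFB4 had 3.68, 4.39 and 4.11 (adjusted p = 0.716). BNIP3 had 2.58, 2.97 and 3.16 (adjusted p = 0.665).

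The shASXL2-3 sample numbered 1 had the highest CPM of all 9 samples for 37 of the 40 genes, against 28.5% of all genes. The median over the genes of log2 CPM, each gene relative to its own median over the 9 samples, was 1.09 in that sample, 0.44 in shControl numbered 1 and 0.46 in shASXL2-2 numbered 1. Leaving it out leaves only shControl and shASXL2-2 to compare. Between these edgeR called 0 of the 40 genes, where 0% of all genes were called. At an unadjusted p under 0.05, 3 of the 40 genes differed, against 6.10% of all genes. DESeq2, run on all samples, called 5, against 1.63% of all genes. When another sample was left out, 8 to 30 of the genes were called, against 2.07% to 18.5% of all genes. The counts that moved most were 20 without shControl numbered 13 (8.84% of all genes), 27 without shControl numbered 25 (12.4%), 8 without shASXL2-2 numbered 13 (2.07%) and 30 without shASXL2-3 numbered 25 (18.5%). Without shASXL2-3 numbered 1, 33 of the 40 genes were called higher in the remaining samples numbered 1 (17.3% of all genes) and 1, BHLHE40, lower (16.3%).

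**Figure D4:**
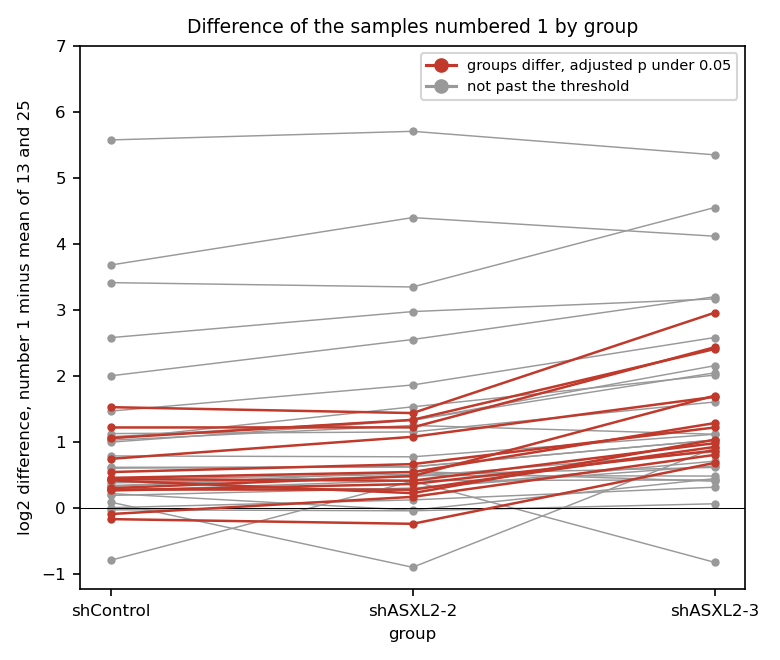
Log2 difference between the sample numbered 1 and the mean of 13 and 25 within each group, 1 line per gene for 39 tested genes (CA9 is left out for its low counts). Red lines are the 13 genes whose difference varied between groups, each highest in shASXL2-3, and grey lines are the others, PPFIA4 uppermost.

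Few of these genes were called between the samples numbered 13 and 25, with shares near those of all genes. Of the 40 genes, 1 was higher at 25 (2.77% of all genes) and 0 were lower (3.10%). At an unadjusted p under 0.05, 7 genes differed, 1 of them lower, where 23.8% of all genes differed. DESeq2 called 1 higher and 0 lower (3.49% of all genes each). The gene called was VEGFA, with a difference of 0.59 (SE 0.10, adjusted p = 0.00844), and all 3 samples numbered 25 lay above all 3 numbered 13. This call was lost without any 1 of the samples numbered 25. Without the shASXL2-3 sample numbered 1 the calls were 6 higher and 2 lower, near the 9.87% and 9.37% of all genes in that fit, and without that numbered 13 they were 1 higher and 3 lower (2.89% and 3.36%). Within these 6 samples shASXL2-3 numbered 25 stood apart. It was the highest of the 6 for 28 of the 40 genes, against 14.1% of all genes. PPFIA4 was 13.6 times, PFKFB4 5.97 times and BNIP3 3.25 times the mean of the other samples numbered 25. The median over the genes of log2 CPM, relative to each gene's own median, was 0.15 in this sample and between -0.22 and -0.02 in the other 5.

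The last question was whether the genes followed the knockdown of ASXL2. In the fit by group alone, edgeR called 0 of the 40 genes for shASXL2-2, shASXL2-3, both shRNAs together or the difference between the shRNAs, where 0% of all genes were called. At an unadjusted p under 0.05 these comparisons held 0, 1, 1 and 2 of the 40 genes, against 2.06% to 6.63% of all genes. The same fit did not call ASXL2 itself, at -1.03 with shASXL2-2 (adjusted p = 0.808) and -1.12 with shASXL2-3 (adjusted p = 0.612). DESeq2 called 1 gene of the list, NDRG1 with shASXL2-3 (0.183% of all genes), and 22, 26, 56 and 11 genes in all. The median difference over the genes was 0.01 with shASXL2-2 and 0.42 with shASXL2-3. The latter was -0.12 without the shASXL2-3 sample numbered 1 and 0.56 without the shControl sample numbered 1, fits in which these groups no longer hold the same numbers.

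The same numbers occur in every group, so the fit was repeated with the number as a block, in which ASXL2 passed for both shRNAs (adjusted p = 0.00469 and 0.00407). For shASXL2-2, 0 of the 40 genes were called (0.282% of all genes), with 1 at an unadjusted p under 0.05 (18.7% of all genes). With shASXL2-3, 2 of the 40 were higher (0.183% of all genes were higher) and 0 lower. At an unadjusted p under 0.05, 23 of the 40 differed with shASXL2-3, against 18.7% of all genes, and 38 of the 40 values were above 0. NDRG1 rose by 0.99 (SE 0.17, adjusted p = 0.0461), with its 3 shASXL2-3 samples at 122, 76.5 and 64.1 CPM above the 3 of shControl at 41.1, 39.5 and 47.8 CPM. CA9 was the other (adjusted p = 0.0238), and it rests on 385 counts in the sample numbered 1 against 0 and 3 in the rest of that group. Both shRNAs together gave 0 of the 40 genes (1.10% of all genes), with 7 at an unadjusted p under 0.05 (20.4% of all genes). Between the shRNAs, CA9 alone was called, higher with shASXL2-3 (adjusted p = 0.0476, 0.0634% of all genes were higher). There 25 of the 40 differed at an unadjusted p under 0.05, against 11.9% of all genes, and 38 of the 40 values were above 0. DESeq2 was not run with the block.

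The comparison was also made without the samples numbered 1, with the number as a block. That left 38 of the genes above the filter, without CA9 and ANGPTL4. This alternative was added after seeing the data. With shASXL2-3, NDRG1 was higher by 0.68 (SE 0.12, adjusted p = 0.00750) and FAM162A by 0.36 (SE 0.08, adjusted p = 0.0215), 2 of 38 against 0.675% of all genes. At an unadjusted p under 0.05, 9 of 38 differed with shASXL2-3, against 17.0% of all genes. With both shRNAs together the same genes were called, NDRG1 at 0.47 (SE 0.10, adjusted p = 0.0268) and FAM162A at 0.26 (SE 0.07, adjusted p = 0.0453), against 0.568% of all genes higher. With shASXL2-2 alone they were at 0.25 (SE 0.12, adjusted p = 0.295) and 0.17 (SE 0.08, adjusted p = 0.272), and neither was called. In shASXL2-2 edgeR called 0 of 38 (1.90% of all genes) with 6 at an unadjusted p under 0.05 (16.5% of all genes). Between the shRNAs it called 0 of 38 (0.916%), with 13 at an unadjusted p under 0.05 (9.61%). The median over the genes for shASXL2-3 was 0.34 with all samples and 0.12 without those numbered 1. PPFIA4, PFKFB4 and BNIP3 kept values of 1.87 (SE 0.65), 1.26 (SE 0.42) and 0.88 (SE 0.28) without passing the test (adjusted p = 0.154, 0.144 and 0.127). In each of these 3 genes the shASXL2-3 sample numbered 25 was high and that numbered 13 was not.

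**Figure D5:**
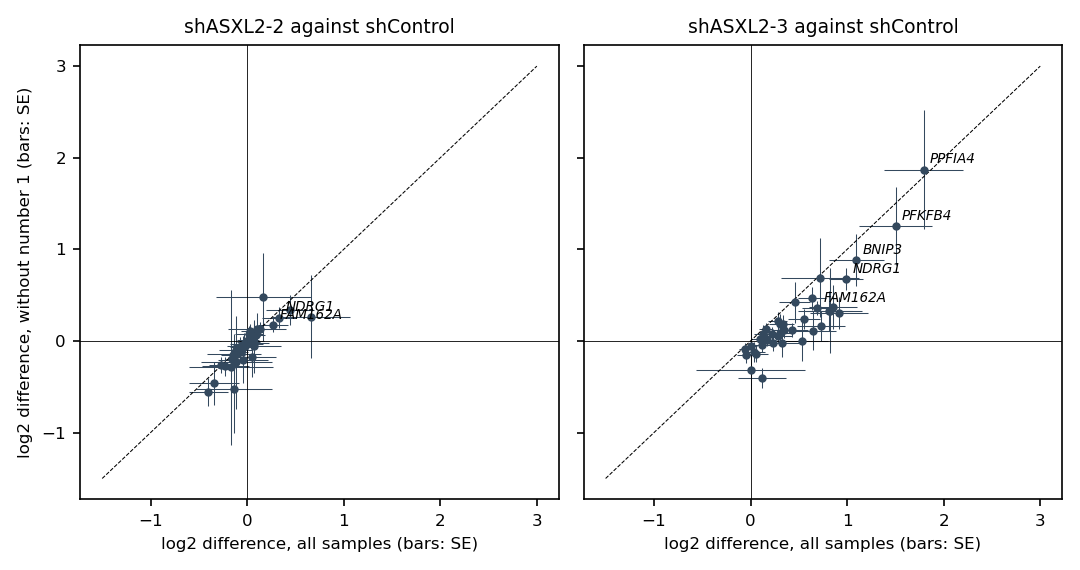
Log2 difference of each shRNA from shControl in the fit with the number as a block, with all samples (horizontal) and without the samples numbered 1 (vertical). Each gene is 1 point with SE, and CA9 and ANGPTL4 are left out. With shASXL2-3 most points lie to the right of 0 and below the dashed line of equal values, where the median fell from 0.34 to 0.12, and with shASXL2-2 the points surround 0.

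Other genes of the pathway were counted in the comparison of number 1 with 13 and 25. Of 11 regulators tested (hydroxylases, ubiquitin ligase parts, coactivators and chaperone), 1 was higher and 4 were lower, so 5 of 11 were called, near the 46.3% of all genes called in either direction. Of 20 glycolytic genes, 18 were higher and 0 lower, with a median of 0.53, against the 24.1% and 22.2% of all genes above. Of 19 other HIF targets tested, 12 were higher and 1 lower, with a median of 0.91. MIR210HG, the host transcript of the hypoxia microRNA miR-210, rose by 5.16 (SE 0.29, adjusted p = 1.59e-05). It was at 5.34, 5.73 and 16.2 CPM in the samples numbered 1 and at 0.0680 to 1.57 CPM in the 6 others, the highest of these again in shASXL2-3 numbered 25. The glycolytic enzymes ALDOC and ENO2 rose by 3.38 and 2.68 (adjusted p = 0.000157 and 0.000731). SPAG4 rose by 2.42 and P4HA1, a collagen prolyl hydroxylase, by 2.17 (adjusted p = 0.000236 and 2.48e-05). PGAM1, another glycolytic enzyme, was the only gene of these 3 lists called in an shRNA comparison of all samples, for both shRNAs together with the block (0.28, SE 0.06, adjusted p = 0.0488), and its pseudogenes may share its reads.

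Markers of cell types were read beside these results. RUNX1T1, the fusion partner that normal blood cells hardly express, was at 111 to 138 CPM in all 9 samples, so the transcript that marks the stated line was present, while CD34 stayed at or under 0.309 CPM. Of 5 tested markers of the line, KIT rose by 0.36 and PTPRC by 0.75 in the samples numbered 1 (adjusted p = 0.00660 and 0.000966) and 0 fell. For all markers here, the shares over all genes in that comparison were 24.1% higher and 22.2% lower. Markers of fibroblasts stayed at or under 1.97 CPM, of T cells at or under 0.104 CPM and of epithelial cells at or under 0.0681 CPM in every sample, with COL1A2, CD3E, CD3G and KRT19 at 0 throughout. The 5 endothelial markers summed to 7.07 to 9.70 CPM in the samples numbered 1 and 4.37 to 7.35 CPM in the others. PECAM1 was up by 0.88 and VWF by 1.92 (adjusted p = 0.000976 and 0.00499). VWF was at 0.963, 0.703 and 3.64 CPM in the samples numbered 1, far the highest in shASXL2-3. KDR, also tested, was not called, at 3.03, 3.11 and 2.04 CPM against 1.98 to 4.76 CPM in the others. CDH5, the defining cadherin of that cell type, was at 0 in all 9 samples. Of 8 targets of amino acid shortage, edgeR called 0 in the samples numbered 1, but 6 differed between groups there (4.92% of all genes), and their part in the result was not tested. In bulk RNA, a change in the share of cells and a change in RNA per cell cannot be told apart.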

How the data were processed

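The authors deposited raw counts per RefSeq transcript, not normalized, 48104 rows for each of 9 samples (3 each of shControl, shASXL2-2 and shASXL2-3), on hg19. The submitters' processing notes name STAR, featureCounts and DESeq2; which of them counted these files, and their versions, is not given in the sources used here. Libraries were unstranded, so overlapping genes cannot be told apart. For each symbol the row with the highest total was used (9509 symbols had several), and a shift between isoforms could move a value.

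Genes were kept by filterByExpr (minimum count 10, minimum total 15), scaled by TMM and tested with edgeR 4.0.16 in R 4.3.3. Number 1 against the mean of 13 and 25, and 25 against 13, used group and number terms (4 residual degrees of freedom); the difference between groups used number 1 by group (2); shRNA comparisons used group only (6), then the number as a block (4). The labels' numbers match samples across groups: deviations from group means correlated in all 9 same-numbered pairs (mean r 0.598, lowest 0.398). Pairs of different numbers were not compared, so this does not show that the samples numbered 13, or those numbered 25, belong together. DESeq2 1.42.0, RLE scaling, no filter, summed rows, length offsets and leaving out samples were alternatives. Members and lists were chosen with earlier results of these data known. Every member is named, grouped by role; of other lists, counts and at most 5 genes. The fits were also run on simulated counts, whose outcome is not given here. Those counts were drawn independently for every sample, so dependence between samples of the same number was not covered. Positions are from GENCODE on GRCh37.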

Additional observations from a re-analysis of the deposited data

Results flagged for a closer look

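Among the 6 samples numbered 13 and 25, shASXL2-3 numbered 25 lay far above the other 5 for BNIP3 and PFKFB4. The gaps were 0.901 and 0.733 of the whole range of log2 CPM, both above the limit for 6 samples. Chance alone sets off this limit in about 1 in 20 groups, so among many genes some would pass it by chance.

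The difference between the sample numbered 1 and the others varied between the groups for 13 genes, by edgeR's test of that difference. The adjusted p values were 0.00186 for SLC2A3, 0.00303 for BHLHE40, 0.00303 for FAM162A and 0.00732 for DDIT4. They were 0.00996 for LOX, 0.0108 for WSB1, 0.0138 for MXI1 and 0.0233 for VLDLR. HILPDA had 0.0278, BHLHE41 0.0344, PFKFB3 0.0349, NDRG1 0.0380 and PDK3 0.0490. In all 13 the shASXL2-3 samples showed the largest difference, and each group's difference rests on 1 sample numbered 1. The share with this order among all genes called was not counted.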

How the results depend on the processing

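The rise of the HIF targets in the samples numbered 1 held under every alternative run, with 31 to 34 genes of the list called higher; 1 (BHLHE40) was called lower without the shASXL2-3 samples (-0.20) or without their replicate 1 (-0.21), and leave-one-out counts of genes called lower ran from 0 to 1. With transcript length offsets the split over all genes moved from 3415 higher and 3155 lower to 2507 and 3851 of 12338. With 1 sample left out, the log2 differences that turned ran from -0.038 to 0.016 for VHL, -0.38 to 0.47 for CA12 and -0.21 to 0.28 for BHLHE40, and CA12 was -0.36 without the shASXL2-3 samples. Of the 7 genes not called, HIF1A passed without shControl replicate 13, VEGFA with DESeq2 or without shASXL2-2 replicate 1 or 13, and NDRG1 without shControl replicate 1 or 25.

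The difference between groups was called for 5 genes of the list by DESeq2 (232 of all genes), 23 without the filter (1751), 6 with summed rows (205), and 0 to 30 when 1 sample was left out (0 to 2664 of all genes). The 0 is without shASXL2-3 replicate 1, which leaves only the other groups to compare (3 of the list and 872 of all genes at an unadjusted p under 0.05). At 25 against 13, 304 genes were called without the group term and 50 to 2750 with 1 sample left out, of the list 0 to 6 higher and 0 to 3 lower, and 1 lower without the filter. The cause of these shifts was not tested.

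For the shRNAs, 0 genes were called without the replicate block, 40 with it for shASXL2-2, 59 for shASXL2-3, 156 for both and 15 between them. These counts were 9, 48, 19 and 17 with length offsets added to the block, 22, 26, 56 and 11 with DESeq2, and 267, 341, 370 and 129 with the replicate block but without the samples numbered 1. Leaving out 1 sample gave 0 to 1 for shASXL2-3 and 0 to 2 for both. From the list, shASXL2-3 had 1 gene higher with DESeq2 and 2 in each of the 3 fits with the replicate block. Both shRNAs together had 2 without the samples numbered 1, and 1 differed between the shRNAs with the block, also with length offsets. The block changed no other call of the list. Log2 differences for shASXL2-3 correlated with transcript length across 12338 genes (Spearman -0.34, genes are not replicates), those for number 1 hardly (-0.00). Genes at 3 counts or fewer in a sample, as CA9, HIF3A, EGLN3 and STC2, are at the limit of depth.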
